A study of Mus musculus with 15 samples.

Results

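The genes described here encode the enzymes, transporters and regulators that carry glucose through glycolysis, through the oxidative and non-oxidative pentose phosphate pathway, and on to lactate or to the mitochondrion. The list held 33 gene symbols, and a gene was measured where an array feature was annotated with its symbol alone. That was so for 28 of the 33, out of 22180 genes measured in this way on the array, and all 28 passed the filter on dim features. Gpi1, Aldoa, Eno1, G6pdx and Tkt had no such feature and are not analysed here, so glucose phosphate isomerase, the main aldolase, the main enolase, the first oxidative step of the pentose phosphate pathway and transketolase are missing from what follows.

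Total RNA came from group 2 innate lymphoid cells (ILC2s) of mouse lung, resident lymphocytes that lack antigen receptors and answer epithelial alarm cytokines such as IL-33 with type-2 cytokines. The 15 arrays formed 5 groups of 3: naive females and naive males, each 8 weeks old, effector females and effector males, and naive neonates. Effector adults were dosed intranasally with IL-33 daily, 3 doses in all, and their cells were taken 1 day after the last. Neonates were 10 days old and carry no sex in the labels. For the age of the effector adults, the mouse strain, the mice behind each array and the sorting markers, nothing is stated in the sources used here. No vehicle-dosed group is labelled, so IL-33 and the dosing itself cannot be told apart. The labels call the arrays of a group biological replicates, and p-values measure only the spread between them.

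Glycolysis turns glucose into pyruvate and yields ATP without oxygen. Its flux is controlled mainly at hexokinase, phosphofructokinase and pyruvate kinase, and most steps have several isoenzymes from separate genes. Pyruvate is then either reduced to lactate, which monocarboxylate transporters export with a proton, or oxidised by the pyruvate dehydrogenase complex, which the pyruvate dehydrogenase kinases switch off. The pentose phosphate pathway branches off at glucose phosphate and supplies NADPH and ribose. Activated lymphocytes are known for raising glycolysis, and HIF1A and MYC are known regulators of many of these genes.

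Values are log2 levels, and a difference of 1 is a doubling. Array medians lay between 4.44 and 4.64. Arrays of a group correlated at 0.904 to 0.974, and the 3 arrays least correlated with their own group were naive male 1, naive male 3 and neonate 2. All 13 ILC2 markers with a feature, of 15 listed, stood above the background range in each of the naive adult, effector adult and neonatal groups, with Gata3 at 8.83, 8.72 and 8.75. The background range was read from 1400 features of olfactory and vomeronasal receptors, whose upper quartile was 4.07 in naive adults, 3.35 in effector adults and 3.72 in neonates. No group mean of a measured member was at or under that quartile. At the stricter level of the receptors' 95th percentile (5.46, 4.63 and 4.88), 10 members were under it in naive adults, 3 in effector adults and 4 in neonates, and Hk3, Pfkm and Pfkfb4 were under it in all 3.

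In effector adults 5 of the 6 measured genes of lower glycolysis (Gapdh to pyruvate kinase) and 3 of the 5 of upper glycolysis rose against naive adults. Transcripts for triose phosphate isomerase, phosphoglycerate kinase, phosphoglycerate mutase and pyruvate kinase were 2.27-fold to 3.22-fold higher, as were 1 hexokinase (Hk2, 2.51-fold) and 1 phosphofructokinase (Pfkp, 2.38-fold). The largest rises were at the pyruvate branch, in the kinase Pdk3 (5.28-fold) and the lactate and pyruvate carrier Slc16a1 (4.4-fold). Neither lactate dehydrogenase gene was called. Of 28 members, 15 were higher and 1 was lower at an adjusted p under 0.05 in limma's moderated test, with p adjusted over 16257 genes. This is 57.1% of the members, and 34.6% of all genes tested were called in this comparison, 23.7% higher and 10.9% lower. The median difference was 0.51 for the members and 0.03 for all genes. Among brighter genes only, with the filter at percentile 60, the contrast was smaller. There the median was 0.62 for 25 members and 0.20 for all genes. At that filter 17 of the 25 members and 5079 of 11237 genes were called, 16 and 3843 of them higher. On 12 members every effector array was above every naive array, and on 1, Pdk1, every effector array was below; among all genes these shares were 15.2% and 4.93%. Arrays report the RNA of a bulk preparation, so fewer cells of a type and less RNA per cell cannot be told apart.

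**Figure D1:**
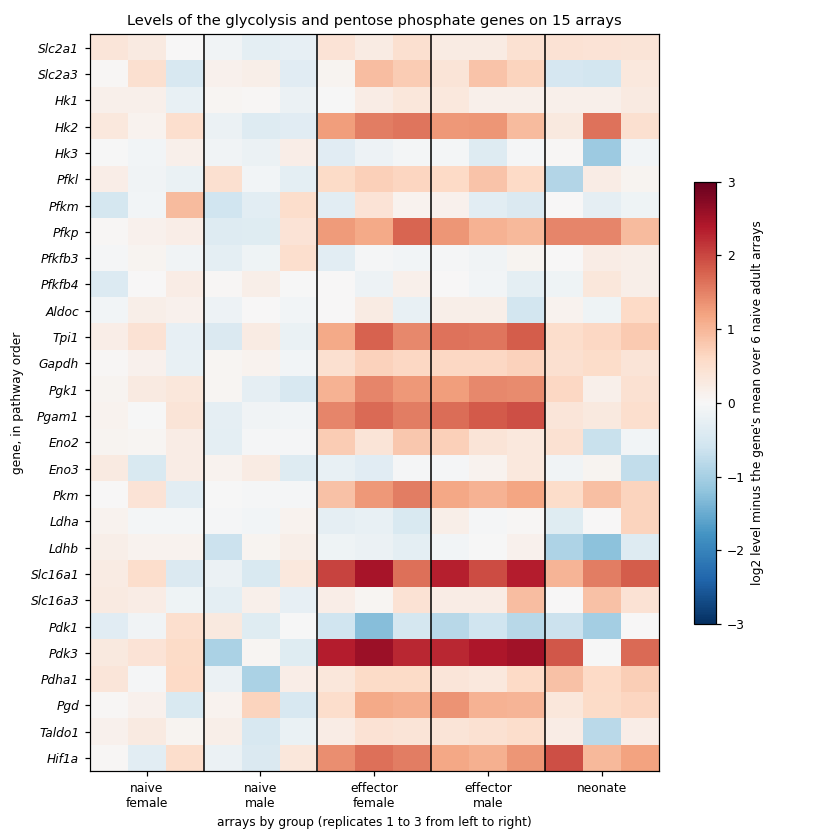
Heat map of 28 genes in pathway order (rows) on 15 arrays by group (columns); colour is the log2 level minus the gene's mean over the 6 naive adult arrays. Tpi1, Pgk1, Pgam1, Pkm, Slc16a1, Pdk3 and Hif1a are above the naive mean on every effector array, and Pdk1 is below it.

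The promoters of the 3 members with the largest rises in effector adults are shown because HIF binding sites share a short core that can be searched for. Each line is the sequence of the 250 bases before the annotated start of transcription, upstream of the annotated first exon, from RefSeq on build GRCm38.p6, written on the strand of the gene. Capitals mark ACGTG and GCGTG, the cores of the HIF element, on either strand (as CACGT and CACGC on the reverse strand), and CACGTG, the E-box, which contains ACGTG on both strands.
Pdk3, chrX:93832151-93832400, minus strand: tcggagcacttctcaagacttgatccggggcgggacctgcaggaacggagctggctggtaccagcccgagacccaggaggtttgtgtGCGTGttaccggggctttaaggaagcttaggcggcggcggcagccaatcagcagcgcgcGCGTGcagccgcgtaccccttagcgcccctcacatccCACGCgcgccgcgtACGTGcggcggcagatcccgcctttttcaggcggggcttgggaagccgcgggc
Slc16a1, chr3:104638414-104638663, plus strand: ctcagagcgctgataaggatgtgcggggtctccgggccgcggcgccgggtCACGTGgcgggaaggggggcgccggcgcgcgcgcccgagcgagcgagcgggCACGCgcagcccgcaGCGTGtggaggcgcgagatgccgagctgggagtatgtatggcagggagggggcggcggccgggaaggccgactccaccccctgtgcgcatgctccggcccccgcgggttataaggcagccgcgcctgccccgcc
Pgam1, chr19:41911621-41911870, plus strand: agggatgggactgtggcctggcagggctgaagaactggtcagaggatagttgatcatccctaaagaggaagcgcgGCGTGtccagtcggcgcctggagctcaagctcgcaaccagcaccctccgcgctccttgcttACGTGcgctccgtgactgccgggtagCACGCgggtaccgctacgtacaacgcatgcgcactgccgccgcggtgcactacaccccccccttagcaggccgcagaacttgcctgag

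The Pdk3 window held ACGTG 53 bases and GCGTG 67, 104 and 163 bases before the start. Slc16a1 had its E-box 200 bases before the start and GCGTG 134 and 149 bases before it. In Pgam1, ACGTG stood 114 bases and GCGTG 88 and 175 bases before the start. Promoter windows of 300 bases, 250 before the start and 50 after, were found for 32 of the 33 listed genes, 46 windows in all, and ACGTG or GCGTG was in 80.4% of them. The same letters were in 43.8% of all 32851 promoter windows. Both cores hold the letters CG, and the windows compared were not matched for CG content, so these shares do not show an excess of HIF elements. The share was not higher among the members that rose: the motif was in 12 of 16 windows (75%) of members higher in effector cells and in 18 of 21 windows (85.7%) of the other tested members. A match is a description of the letters and not of binding.

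Glucose enters these cells through facilitative transporters. Slc2a1, the widely expressed GLUT transporter, ranged over the 6 naive adult arrays from 8.07 to 8.73 with a median of 8.31, and over the 6 effector arrays from 8.61 to 8.84 with a median of 8.69. The groups overlapped, since naive females 1 and 2 reached 8.73 and 8.64. The difference was 0.35 ± 0.11 (moderated SE; limma, adjusted p = 0.0183). Slc2a3, a transporter of high glucose affinity, ranged from 6.22 to 7.18 with a median of 6.79 in naive adults and from 6.80 to 7.64 with a median of 7.42 in effector adults. It rose by 0.62 ± 0.21 (adjusted p = 0.0319) and the groups overlapped. Both calls were weak: Slc2a1 was not called without effector male 3 (adjusted p = 0.052), with the mean of its 2 features (0.24, adjusted p = 0.13) or after a further quantile normalization (0.17, adjusted p = 0.291). Slc2a3 was not called after that normalization (0.44, adjusted p = 0.145) or without any 1 of effector females 2 and 3, effector males 2 and 3, naive females 1 and 3 and naive male 3 (limma, adjusted p = 0.0526 to 0.0846).

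Hexokinases trap glucose as its phosphate. Hk2, the inducible form, was at 5.13, 4.92 and 5.34 in naive females and 4.66, 4.43 and 4.48 in naive males. In effector females it was at 6.09, 6.35 and 6.44, and in effector males at 6.13, 6.15 and 5.78. Every effector array was above every naive array, a difference of 1.33 ± 0.19 (limma, adjusted p = 8.56e-05). The naive mean of 4.83 was under the 95th percentile of the receptor features, where levels are close to background, and the effector mean of 6.16 was above it. Hk1, the constitutive form, ranged from 5.81 to 6.17 in naive and from 6.02 to 6.37 in effector adults. Its difference was 0.19 ± 0.11 (adjusted p = 0.202). Hk3 ranged from 4.38 to 4.74 and from 4.15 to 4.51, a difference of -0.17 ± 0.17 (adjusted p = 0.472) at levels near background in every group.

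Phosphofructokinase has a liver-type, a muscle-type and a platelet-type subunit. Pfkp, the platelet type, was at 7.90, 8.01 and 8.08 in naive females and 7.49, 7.52 and 8.28 in naive males, against 9.17, 9.02 and 9.62 in effector females and 9.19, 8.92 and 8.86 in effector males. The groups did not overlap and the difference was 1.25 ± 0.16 (limma, adjusted p = 3.69e-05). Pfkl, the liver type, ranged from 4.94 to 5.72 in naive and from 5.81 to 6.08 in effector adults. It rose by 0.66 (95% confidence interval 0.27 to 1.05, adjusted p = 0.0122), also without overlap. The naive mean of Pfkl, 5.23, was under the receptors' 95th percentile, so the size of this rise is uncertain. Pfkm, the muscle type, stayed near background, from 3.82 to 5.37 in naive and from 3.97 to 4.82 in effector arrays, with a difference of -0.07 ± 0.24 (adjusted p = 0.852).

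The bifunctional enzymes Pfkfb3 and Pfkfb4 make and remove the sugar bisphosphate that activates phosphofructokinase. Neither was called: Pfkfb3 differed by -0.08 and Pfkfb4 by -0.06, with 95% confidence intervals of -0.37 to 0.20 and -0.34 to 0.22. Aldoc, the aldolase best known from brain, ranged from 4.66 to 4.99 in naive and from 4.27 to 5.07 in effector adults and differed by -0.02 (-0.36 to 0.32). Pfkfb3, Pfkfb4 and Aldoc were under the receptors' 95th percentile in naive adults, and Pfkfb4 also in effector adults, so these differences are uncertain.

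Below the aldolase step Tpi1, Gapdh and Pgk1 all rose. Tpi1, which interconverts the triose phosphates, was at 7.99, 8.23 and 7.55 in naive females and 7.36, 8.03 and 7.59 in naive males. On effector arrays it was at 8.93, 9.56 and 9.23 in females and 9.43, 9.39 and 9.62 in males. The lowest effector array (8.93) was above the highest naive array (8.23), and the difference was 1.57 ± 0.16 (limma, adjusted p = 2.22e-06). Gapdh, the triose phosphate dehydrogenase, ranged from 10.62 to 10.97 in naive and from 11.33 to 11.55 in effector adults, a rise of 0.62 ± 0.10 (adjusted p = 0.000301). The genome carries many near-identical Gapdh copies, so its value is uncertain. Its other features, not used here, differed by 0.63 and 1.36. Pgk1, the first ATP-forming enzyme of the pathway, ranged from 7.26 to 8.09 in naive and from 8.78 to 9.21 in effector adults and rose by 1.32 ± 0.13 (adjusted p = 2.19e-06).

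Pgam1, the phosphoglycerate mutase, had the smallest p of all members. It was at 7.67, 7.56 and 7.95 in naive females, 7.30, 7.47 and 7.49 in naive males, 9.03, 9.28 and 9.12 in effector females and 9.25, 9.41 and 9.50 in effector males. No arrays overlapped and the difference was 1.69 ± 0.11 (limma, adjusted p = 2.43e-08). A dimmer feature of the gene, not used, went from 4.72 to 5.91.

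Of the enolases that were measured, Eno2, the neuronal form, ranged from 4.53 to 5.04 in naive and from 5.13 to 5.62 in effector adults and rose by 0.56 ± 0.17 (limma, adjusted p = 0.0172). Its naive mean of 4.82 was close to background. Eno3, the muscle form, ranged from 6.10 to 6.83 in naive and from 6.22 to 6.88 in effector adults and differed by -0.03 ± 0.18 (adjusted p = 0.902). Pkm, the pyruvate kinase of most tissues, ranged from 8.37 to 9.08 in naive and from 9.54 to 10.21 in effector adults. That was a rise of 1.18 ± 0.14 (adjusted p = 1.59e-05) without overlap. The value used here does not separate the splice forms of Pkm.

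**Figure D2:**
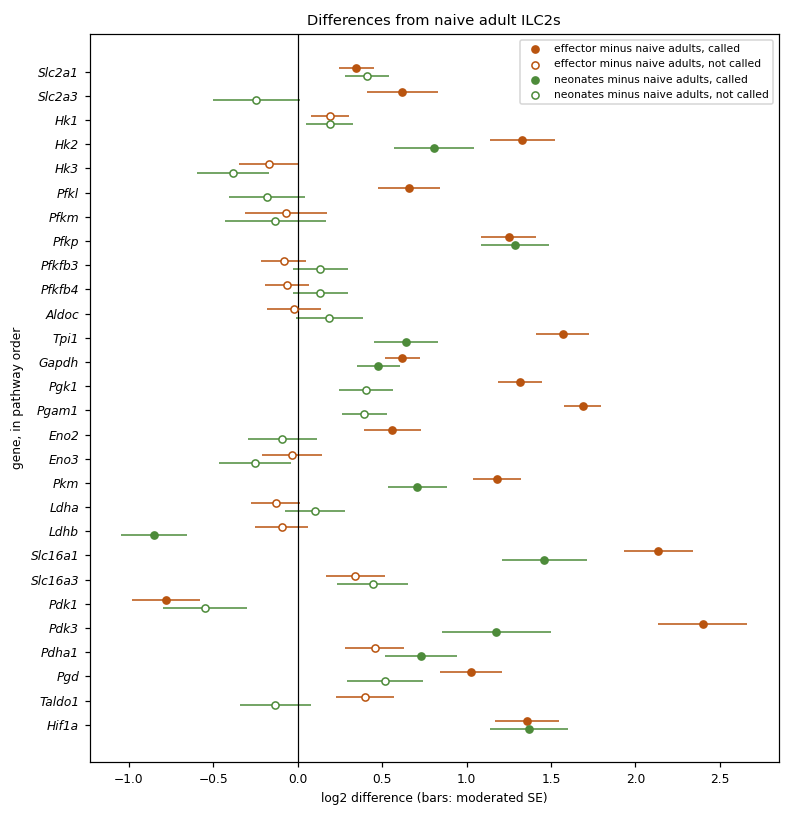
Log2 difference from naive adults (horizontal axis) for 28 genes in pathway order, effector adults in orange and neonates in green; bars are moderated standard errors and filled points are called at an adjusted p under 0.05. Pdk3 (2.40) and Slc16a1 (2.14) lie farthest right in effector adults, and Pfkp (1.29) and Hif1a (1.37) in neonates fall beside their effector values (1.25 and 1.36).

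At the pyruvate branch neither lactate dehydrogenase gene was called. Ldha, whose tetramers favour lactate formation, was at 7.96, 7.79 and 7.79 in naive females, 7.81, 7.76 and 7.94 in naive males, 7.56, 7.62 and 7.39 in effector females and 8.01, 7.81 and 7.88 in effector males. The groups overlapped: effector females were below all naive arrays, and effector males reached from 7.81 to 8.01. The difference was -0.13, and its 95% confidence interval of -0.44 to 0.18 does not reach the rise of Pgk1, Pgam1 or Pkm (limma, adjusted p = 0.522). Ldhb, which favours pyruvate, ranged from 6.04 to 6.85 in naive and from 6.41 to 6.81 in effector adults, a difference of -0.10 with an interval of -0.44 to 0.24 (adjusted p = 0.677).

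The carriers that move lactate and pyruvate across the membrane differed from each other. Slc16a1, which encodes MCT1, was at 5.14, 5.44 and 4.47 in naive females and 4.72, 4.44 and 5.22 in naive males, against 6.94, 7.37 and 6.57 in effector females and 7.25, 6.87 and 7.26 in effector males. All effector arrays were above all naive arrays, and the difference was 2.14 ± 0.21 (limma, adjusted p = 1.64e-06). Its naive mean of 4.91 was under the stricter background level and its effector mean of 7.04 was above it. Slc16a3, which encodes MCT4, the carrier known for lactate export from glycolytic cells, ranged from 4.98 to 5.54 in naive and from 5.31 to 6.18 in effector adults. Its difference of 0.34 ± 0.17 was not called (adjusted p = 0.142), and the groups overlapped. The naive mean of Slc16a3, 5.27, was also under the stricter background level.

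The pyruvate dehydrogenase kinases moved in opposite directions. Pdk3 was at 6.51, 6.61 and 6.78 in naive females and 5.25, 6.26 and 5.83 in naive males. It was at 8.56, 8.78 and 8.48 in effector females and 8.46, 8.63 and 8.74 in effector males. The 6 effector arrays were tight (SD 0.13) and all above the naive arrays (SD 0.57), a difference of 2.40 ± 0.26 (limma, adjusted p = 6.83e-06). Pdk1, a kinase known as a HIF target, was at 5.60, 5.85 and 6.46 in naive females and 6.25, 5.59 and 5.95 in naive males. On effector arrays it was at 5.34, 4.68 and 5.42 in females and 5.13, 5.35 and 5.11 in males. It fell by 0.78 ± 0.20 (adjusted p = 0.00799), with every effector array below every naive array, and its dimmer feature differed by -0.85. Without naive male 1, naive male 3 and neonate 2 together the Pdk1 difference was -0.61 (limma, adjusted p = 0.0552). Pdha1, the subunit of the complex that these kinases phosphorylate, ranged from 6.70 to 8.25 in naive and from 7.97 to 8.24 in effector adults. The difference of 0.46 ± 0.17 was not called (adjusted p = 0.0553). Over 25 other settings it ran from 0.26 to 0.78, with a call in 8 of them (limma, adjusted p = 0.00211 to 0.266), and without naive male 2, the array at 6.70, it was 0.30 (adjusted p = 0.129).

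**Figure D3:**
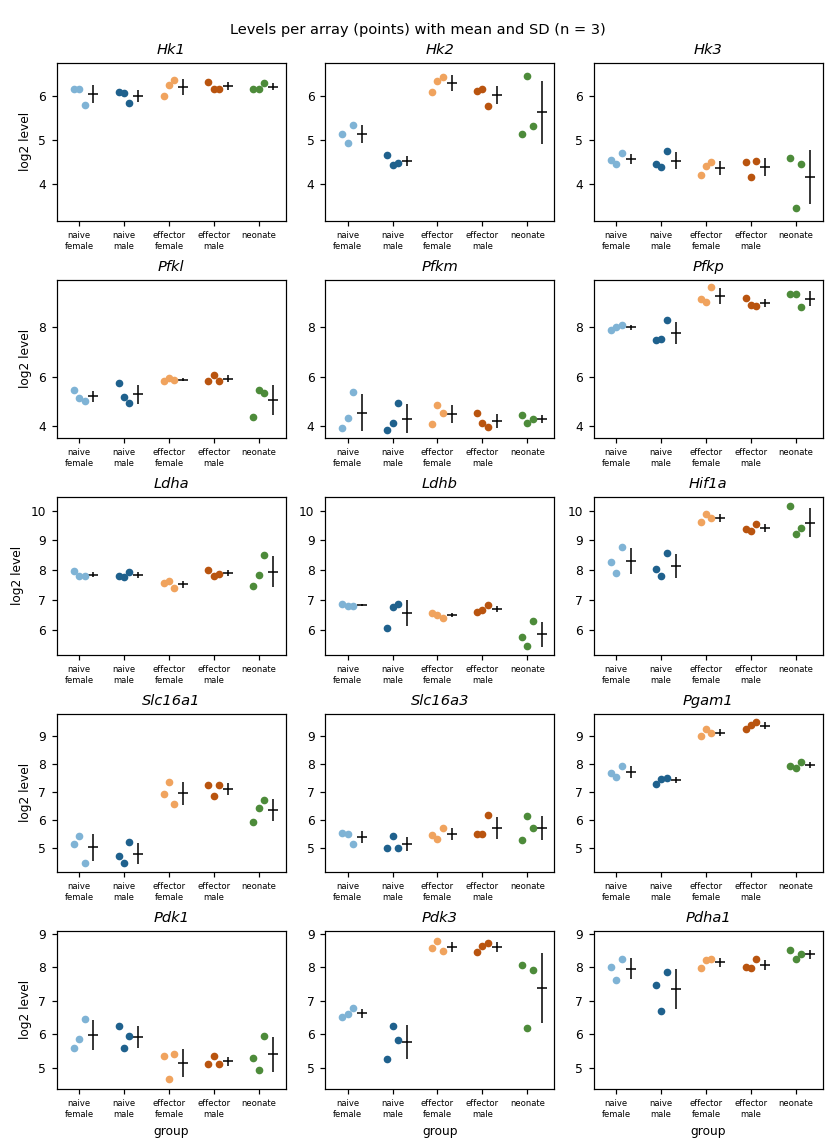
Log2 level on each array (points, 3 per group) with the group mean and SD (bars) for isoenzymes, carriers, kinases and Hif1a; genes in a row share a vertical axis. Hk2, Pfkp, Slc16a1 and Pdk3 are higher in both effector groups, while Ldha and Ldhb overlap with the naive adults; neonate 2 is apart from the other neonates in Pdk3 (6.19) and Hk2 (6.46).

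In the pentose phosphate pathway, Pgd, the decarboxylating dehydrogenase that yields NADPH, ranged over the 6 naive adult arrays from 6.41 to 7.55 with a median of 6.95 and over the 6 effector arrays from 7.41 to 8.22 with a median of 7.96. Only naive male 2 at 7.55 reached the effector range, and the difference was 1.03 with a 95% confidence interval of 0.63 to 1.42 (limma, adjusted p = 0.000562). Taldo1, the transaldolase of the non-oxidative arm, ranged from 7.90 to 8.66 in naive and from 8.59 to 8.91 in effector adults. Its 0.40 ± 0.17 was not called (adjusted p = 0.0818). Over 25 other settings the Taldo1 difference ran from 0.22 to 0.56, with a call in 6 of them (limma, adjusted p = 0.00288 to 0.313).

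Hif1a encodes the oxygen-regulated subunit of HIF, which is controlled mainly through protein stability. Its transcript was at 8.27, 7.90 and 8.77 in naive females, 8.06, 7.80 and 8.58 in naive males, 9.63, 9.89 and 9.77 in effector females and 9.39, 9.30 and 9.55 in effector males. The groups did not overlap and the difference was 1.36 ± 0.19 (limma, adjusted p = 6.04e-05). A much dimmer feature of the gene did not follow, at 4.34 in naive and 4.22 in effector adults, and with the mean of both features the difference was 0.62, still called.

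Of the 16 calls in effector adults, 13 held in each of 25 other settings; the exceptions were Slc2a1, Slc2a3 and Pdk1. Centring each array on its median moved the median of all genes from 0.03 to 0.17, raised the share of higher calls among all called genes from 68.5% to 83.0%, and gave 19 members higher and 1 lower. T cell and B cell marker lists moved with this comparison: over the 7 T cell markers of 10 with a feature the mean level ran from 5.41 to 5.67 on naive and from 5.06 to 5.35 on effector arrays, and over 5 of 6 B cell markers from 5.23 to 5.68 and from 4.83 to 5.15. All 7 T cell markers had a lower mean in effector adults, led by Cd3g (10.22 to 9.65) and Cd8b1 (4.09 to 3.53). Only Cd3e and Cd3g were above the receptors' 95th percentile in naive adults (5.46), a level that itself was 4.63 in effector adults. The receptors' upper quartile also fell, from 4.07 to 3.35, so the falls of the dimmer T cell markers are uncertain. Cd8a was in the background range in naive adults. The B cell markers were split: Ighm went from 9.99 to 7.80 and Cd79b from 5.42 up to 6.42, while Ms4a1 was in the background range in both groups. Their part in the differences was not tested.

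Isoenzymes of the same step were then compared within each array, as the log2 level of one minus that of the other, so that only unequal change counts and not the brightness of a probe. Of 12 pairs listed, 9 had a feature for both genes. Between effector and naive adults, 5 pairs were called in a two-sided exact permutation test over 6 against 6 arrays, each at the smallest p that this design allows (0.00216, adjusted p = 0.0039 over 9 pairs). Pdk1 fell by 3.18 ± 0.33 (SE) against Pdk3, the only one of the 5 pairs with both genes above the receptors' 95th percentile in both groups. Hk2 gained 1.14 ± 0.19 over Hk1, and Slc16a1 gained 1.79 ± 0.25 over Slc16a3, where Hk2, Slc16a1 and Slc16a3 were under that level in naive adults, so the size of these gains is uncertain. Hk2 against Hk3 (1.50 ± 0.19) and Pfkp against Pfkm (1.32 ± 0.23) say nothing of unequal change: Hk3 and Pfkm were near background in every group, so these values restate the rises of Hk2 (1.33) and Pfkp (1.25). On all 5 pairs the groups did not overlap. For the other 4 pairs no unequal change was called: Pfkp against Pfkl differed by 0.59 (exact permutation p = 0.0563, adjusted p = 0.0844), Slc2a1 against Slc2a3 by -0.27 (adjusted p = 0.284), Ldha against Ldhb by -0.03 (adjusted p = 0.898) and Pfkfb3 against Pfkfb4 by -0.02 (exact permutation, adjusted p = 0.898).

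**Figure D4:**
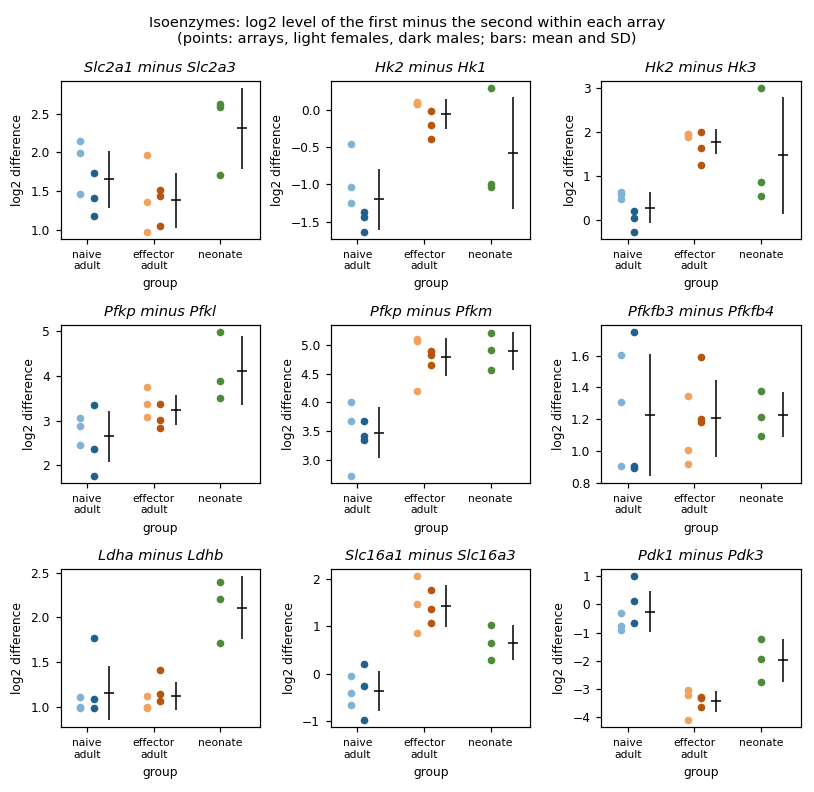
Within-array log2 difference between isoenzymes (vertical axis) for 9 pairs in naive adults, effector adults and neonates; points are arrays and bars the mean and SD. Effector and naive arrays do not overlap for Hk2 minus Hk1, Hk2 minus Hk3, Pfkp minus Pfkm, Slc16a1 minus Slc16a3 and Pdk1 minus Pdk3, of which Hk3 and Pfkm are near background in every group; where a value lies against 0 has no meaning, because each gene has its own probes.

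Naive neonates also had higher levels of several members than naive adults, led by Slc16a1 (2.75-fold), Hif1a (2.58-fold) and Pfkp (2.44-fold), and lower Ldhb (1.8-fold). In limma's test 9 of 28 members were higher and 1 was lower, 35.7% of the members, and 10.2% of all genes were called, 6.04% higher and 4.12% lower. The median difference was 0.29 for the members and 0.02 for all genes. On 7 members every neonatal array was above every naive adult array, as for 6.88% of all genes, and on 0 members was every neonatal array below (4.1% of all genes). The naive adult arrays are the same ones that entered the effector comparison, so the 2 sets of differences are not independent.

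Pfkp was at 9.34, 9.34 and 8.83 in the 3 neonates, all above the highest naive adult array of 8.28. The difference was 1.29 ± 0.20 (limma, adjusted p = 0.000909). Slc16a1 was at 5.93, 6.44 and 6.73, above the highest naive adult array of 5.44, and rose by 1.46 ± 0.25 (adjusted p = 0.00189). Hif1a was at 10.16, 9.21 and 9.43 against a naive adult maximum of 8.77, a rise of 1.37 ± 0.23 (adjusted p = 0.00164). Its dimmer feature differed by -0.49, and with the mean of both features the difference was 0.44 and was not called (adjusted p = 0.154).

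Gapdh was 0.48 ± 0.13 higher, at 11.32, 11.41 and 11.25 against a naive adult maximum of 10.97, and Pkm was 0.71 ± 0.17 higher, at 9.23, 9.57 and 9.35 against 9.08 (limma, adjusted p = 0.0274 and 0.0182). Tpi1 was at 8.32, 8.40 and 8.57, above the naive adult maximum of 8.23, and rose by 0.64 ± 0.19 (adjusted p = 0.0449). Neonate 2 stood apart in Hk2 and in Pdk3, in opposite directions. Hk2 was at 5.13, 6.46 and 5.31, and the rise of 0.81 ± 0.24 (limma, adjusted p = 0.0418) came to 0.39 (adjusted p = 0.165) without that array. Pdk3 was at 8.06, 6.19 and 7.91, and its rise was 1.18 ± 0.32 (adjusted p = 0.0321). Without neonate 2 the Pdk3 rise was 1.78 (adjusted p = 0.000217). It was not called without any 1 of neonates 1 and 3, naive male 1 and naive females 1 and 2 (limma, adjusted p = 0.0532 to 0.165).

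Pdha1 was at 8.53, 8.24 and 8.39 against a naive adult range of 6.70 to 8.25, a rise of 0.73 ± 0.21 (limma, adjusted p = 0.0426). Ldhb was at 5.77, 5.46 and 6.29, where 5 of the 6 naive adult arrays lay between 6.78 and 6.85 and naive male 1 was at 6.04. It fell by 0.85 ± 0.20 (adjusted p = 0.0128), while Ldha, at 7.48, 7.85 and 8.50, differed by 0.10 ± 0.18 (adjusted p = 0.773). Pgk1 (0.41, adjusted p = 0.123) and Pgam1 (0.40, adjusted p = 0.0768), which rose in effector adults, were not called in neonates. Each was called in 1 of 27 other settings, against adult males alone (limma, adjusted p = 0.0437 and 0.0399). Slc2a1 was at 8.79, 8.78 and 8.74, above all naive adult arrays, and its 0.41 missed the threshold (limma, adjusted p = 0.0545). Over 27 other settings the Slc2a1 difference ran from 0.20 to 0.63, with a call in 3 of them (limma, adjusted p = 0.0164 to 0.502). Pdk1 was at 5.31, 4.94 and 5.96, a difference of -0.55 (adjusted p = 0.182) that was -0.32 without neonate 2 and -0.83 without neonate 3, not called in either. With the mean of its 2 features the Pdk1 difference was -0.59 and was called (limma, adjusted p = 0.0496), the only call in 27 other settings.

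Over 27 other settings, the calls of Pfkp and Slc16a1 held in all, Hif1a in all but the feature mean, and the other 7 lost theirs in 4 (Ldhb) to 17 (Hk2 and Tpi1) settings. The count of 10 called members was 5 without neonate 1, 4 without neonate 2 and 6 without naive female 1. The mean of the mast cell and basophil markers moved with the neonates, but not every marker did. Over all 6 it ran from 4.25 to 4.46 in naive adults, from 4.09 to 4.83 in effector adults and from 4.81 to 5.64 in neonates. In that order Cpa3 was at 8.01, 7.10 and 10.43, and Tpsb2 at 4.24, 4.30 and 5.22. Mcpt8, at 4.78, 5.85 and 6.58, was also higher in effector adults, and Ms4a2 did not rise (4.22, 4.04 and 4.15). Fcer1a and Mcpt4 were in the background range. The 6 fibroblast markers moved with the neonates too: their mean ran from 3.83 to 4.19 in naive adults, from 3.78 to 3.93 in effector adults and from 4.32 to 4.48 in neonates, with Col3a1 at 4.85, 4.64 and 5.35 and with Dcn and Lum in the background range in all 3. The mean of the 8 epithelial markers overlapped, from 4.97 to 5.42 in naive adults and from 5.17 to 5.66 in neonates. Of its surfactant genes Sftpc was at 5.53 and 7.51, and Sftpb at 4.82 and 4.46. Their part in the neonatal differences was not tested.

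None of the 9 isoenzyme pairs was called between neonates and naive adults by the exact permutation test, where 3 against 6 arrays cannot go below p = 0.0238. That smallest p was reached by Pfkp against Pfkl (1.47), Pfkp against Pfkm (1.42), Slc16a1 against Slc16a3 (1.02) and Pdk1 against Pdk3 (-1.73), each with an adjusted p of 0.0536 and without overlap of the arrays. Pfkm was near background here too, so Pfkp against Pfkm restates the rise of Pfkp (1.29), and in naive adults Pfkl, Slc16a1 and Slc16a3 were under the receptors' 95th percentile. The Ldha minus Ldhb value was 0.95 higher in neonates (exact permutation p = 0.0476, adjusted p = 0.0857).

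Neonates were set directly against effector adults to test where they differ. No member was higher and 8 were lower, 28.6% of the members, where 20.6% of all genes were called, 5.93% higher and 14.7% lower. The median difference was -0.21 for the members and -0.03 for all genes. Among brighter genes only, with the filter at percentile 60, all genes were shifted further down, with a median of -0.18 against -0.47 for 25 members. At that filter 8 of the 25 members and 3178 of 11237 genes were called, 0 and 683 of them higher. Of the 6 measured genes of lower glycolysis 3 were lower, Pgam1 (-1.29 ± 0.14, limma, adjusted p = 1.88e-05), Pgk1 (-0.91 ± 0.16) and Eno2 (-0.65 ± 0.20), and Gapdh, Eno3 and Pkm were not called. Of the 5 of upper glycolysis 2 were lower, Tpi1 (-0.93 ± 0.19) and Pfkl (-0.84 ± 0.23). Pfkl was at 4.37, 5.47 and 5.33 in the neonates, and without neonate 1, the array at 4.37, its difference was -0.50 and was not called (limma, adjusted p = 0.0988). The others were Slc2a3 (-0.86 ± 0.26), Pdk3 (-1.22 ± 0.32) and Ldhb (-0.75 ± 0.20). For Pgam1 the neonates lay at 7.88 to 8.09 and the effector adults at 9.03 to 9.50. By contrast Pfkp differed by 0.04 with a 95% confidence interval of -0.39 to 0.47, and Hif1a by 0.01 with an interval of -0.48 to 0.50. For these genes a difference of up to about that size in either direction is not excluded.

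On 6 members, Pfkl, Tpi1, Pgk1, Pgam1, Ldhb and Pdk3, every neonatal array was below every effector array, as for 16.2% of all genes. On Pdha1 every neonatal array was above the effector maximum, as for 7.92%, but only barely (8.2443 against 8.2439). The Pdha1 difference of 0.27 was not called (limma, adjusted p = 0.392). Without neonate 2, 5 members were called: the calls of Eno2 (-0.36, adjusted p = 0.221), Slc2a3, Ldhb (-0.56, adjusted p = 0.0897) and Pdk3 (-0.62, limma, adjusted p = 0.0727) were lost, and Hk2 (-0.94) was called. After centring, 10 members were lower, Pkm and Slc16a1 being added, and the share of higher calls among all called genes went from 28.8% to 16.4%. The mean of the 7 T cell markers, at 5.66 to 5.85 in neonates, and that of the fibroblast markers were above all effector arrays. The receptors' upper quartile was also higher in neonates (3.72) than in effector adults (3.35). The part of these markers in the differences was not tested.

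The response was examined in each sex. In females 11 members were higher and none was lower (14% of all genes called, 10.2% higher and 3.77% lower), and in males 13 were higher and none was lower (24.9% called, 18.7% higher and 6.25% lower). The glycolytic members called in both were Hk2, Pfkp, Tpi1, Gapdh, Pgk1, Pgam1 and Pkm, with Slc16a1, Pdk3, Pgd and Hif1a beside them. After centring, the share of higher calls among all called genes went from 73.1% to 83.9% in females and from 74.9% to 86.8% in males. Pgam1 rose by 1.41 ± 0.16 in females and by 1.97 ± 0.16 in males, and Pgk1 by 1.03 ± 0.18 and 1.60 ± 0.18. Slc2a1 (0.53) and Pdha1 (0.73) were called in males, and in females they differed by 0.16 and 0.18 without a call.

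The difference of the responses was not called for any member in limma's test, as for 0% of all genes. Unadjusted values under 0.05 were found for 2 members and for 866 of all genes (5.33%), Pgam1 (female minus male -0.55, limma, adjusted p = 0.867) and Pgk1 (-0.57, adjusted p = 0.914). Naive females and males differed in 0 members (0.209% of all genes called by limma) and in 5 of 28 at an unadjusted p under 0.05, where 1614 of all genes (9.93%) were so. All 5 were higher in females: Slc2a1 by 0.43, Pgk1 by 0.46, Hk2 by 0.61, Pdha1 by 0.62 and Pdk3 by 0.85. Effector females and males differed in 0 members by either measure, where limma called 0.0308% of all genes and 2.04% had an unadjusted p under 0.05.

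Neighbouring pathways were read from lists of genes outside the 33. Of 26 other glycolysis and pyruvate genes tested, 8 were higher and 2 lower in effector adults, with a median difference of 0.16. That is 38.5% called, near the 34.6% of all genes. They included Slc2a6, a hexose transporter of lysosomes, at 1.50 ± 0.17, Minpp1, an inositol polyphosphate phosphatase, at 0.93 ± 0.22, and Dld, the lipoamide dehydrogenase shared by the pyruvate dehydrogenase complex, at 0.88 ± 0.16 (limma, adjusted p = 9.77e-06, 0.0039 and 0.000701). In neonates 2 of the 26 were called (7.69%, against 10.2% of all genes), Slc16a6 at 1.14 ± 0.14 and Slc2a6 at 0.83 ± 0.21. Of 7 other pentose phosphate genes tested, 3 (42.9%) were higher in effector adults, where 23.7% of all genes were: Rpe, an epimerase of the non-oxidative arm (0.98 ± 0.22), Prps1, which makes the activated ribose of nucleotides (0.86 ± 0.15), and Pgls, the lactonase of the oxidative arm (0.35 ± 0.11). No gene of that list was called in neonates.

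Glycogen and gluconeogenesis genes gave 5 higher of 14 in effector adults (35.7% called, near the 34.6% of all genes), among them the glycogen phosphorylase Pygb (1.09 ± 0.17), the mitochondrial carboxykinase Pck2 (0.98 ± 0.15) and the glycogen synthase Gys1 (0.97 ± 0.23). In neonates 1 was called, the liver-type phosphorylase Pygl, which was lower (-0.79 ± 0.17). Of 18 tested genes of the HIF pathway and its targets outside glycolysis, 5 were higher and 1 lower in effector adults, 33.3% called and so near the 34.6% of all genes. In neonates 6 were higher and 1 lower, 38.9% called where 10.2% of all genes were. Epas1, which encodes another HIF alpha subunit, rose from 7.86 in naive adults to 9.88 in effector adults (2.03 ± 0.13, limma, adjusted p = 2.59e-08) and to 9.37 in neonates (1.52 ± 0.16, adjusted p = 3.76e-05). Egln3, a prolyl hydroxylase that acts on HIF, rose by 2.00 ± 0.32 and Ndrg1, a hypoxia-responsive gene, by 1.37 ± 0.22 in effector adults. Vegfa, the angiogenic HIF target, rose by 1.73 ± 0.26 in neonates (adjusted p = 0.000669). The remaining 12 of the 18 in effector adults and 11 in neonates were not called.

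Among 12 other regulators of glucose metabolism, 5 were higher and 1 lower in effector adults, 50% called against 34.6% of all genes. The lower gene was Txnip, an arrestin that limits glucose uptake, which went from 11.51 in naive adults to 10.02 in effector adults (-1.48 ± 0.17, limma, adjusted p = 8.77e-06) and to 10.32 in neonates (-1.19 ± 0.21, adjusted p = 0.00192), where it was the only call of the list. Foxk2 (1.19 ± 0.25) and Foxk1 (0.80 ± 0.24), forkhead factors known to induce glycolytic genes, were higher in effector adults.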

How the data were processed

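RNA of lung ILC2s, isolated with Trizol and given a biotin label (Nugen Encore kit) per the labels' protocols, was measured on 15 arrays, 1 per sample. The deposited log2 values were made by the authors with Affymetrix Expression Console and RMA, per the submitters' processing notes; no version is stated in the sources used here. RMA subtracts background and equalises the distributions of probe intensities, which compresses differences of dim features. The deposited values were still not equal in distribution, with array medians from 4.44 to 4.64. Mean levels of the olfactory and vomeronasal receptor features ran from 3.14 to 3.62 on naive adult arrays and from 2.72 to 2.85 on effector arrays. Precision is limited by the number of arrays.

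Of 41345 features, 23521 carried exactly 1 gene symbol. Features above percentile 40 of their array on at least 3 arrays were kept, and of several features of a gene the highest mean was used, leaving 16257 genes. All 15 arrays entered 1 fit with a mean per group (limma 3.58.1, R 4.3.3; empirical Bayes; 10 residual and 5.05 prior degrees of freedom), two-sided, with Benjamini-Hochberg adjustment over all genes and calls at an adjusted p under 0.05. Sexes were weighted equally. Errors are moderated standard errors unless named SD, and fold is 2 to the power of the log2 difference. Isoenzyme pairs were tested by exact permutation over arrays (scipy 1.17.1). The fit was tested on simulated data. Figures used matplotlib 3.10.9.

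Per-array values are given for the called member with the largest difference at each step and its isoenzymes, and for members with large differences; genes outside the list are the 3 largest calls of a list in effector adults and the 2 largest in neonates. Members and lists were chosen with earlier results of these data known. Alternatives were other filters, scalings, priors, array weights, a replicate block, only the arrays compared, feature means, adults of 1 sex, each array left out, and, chosen after seeing the data, the 3 least correlated arrays left out. The stricter background level was also chosen then. Promoters are RefSeq's (GRCm38.p6).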

Additional observations from a re-analysis of the deposited data

Results flagged for a closer look

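In 56 checks of a member's highest and lowest array in groups of 6, 2 arrays lay far from the others, and chance flags about 1 in 20 such checks. Pfkfb4 was at 3.81 on naive female 1, where the nearest other naive adult array was at 4.22. Ldhb was at 6.04 on naive male 1, where the nearest was at 6.78, and that array is 1 of the 3 least correlated with their own group.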

How the results depend on the processing

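In the 3 comparisons that pool adults or set neonates against them, no member's called difference changed sign under any alternative; within each sex only the counts were recomputed. For effector against naive adults 14 to 17 members were called without 1 array at a time and 14 to 20 under other settings; in females alone the counts were 9 to 12 and 10 to 13, and in males 11 to 15 and 10 to 17. For neonates against naive adults the count of 10 fell to 5 with array weights, 3 with only the arrays compared, 4 against adult females alone and 6 without the 3 least correlated arrays, and leaving out 1 array gave 4 to 8. For neonates against effector adults the count of 8 fell to 5 after a further quantile normalization and 4 against adult females alone, and leaving out 1 array gave 5 to 9. Without the 3 least correlated arrays, 1 member was called between naive females and males, and without 1 array at a time 0. The pair counts were 5 to 6 in effector adults and 0 in neonates when 1 array was left out. Samples share only a replicate number: over 10 pairs of groups, deviations of same-numbered arrays correlated at -0.11 to 0.10, in 0 pairs was every correlation over 0.1, and in none did all 3 arrays of a group correlate best with their own number. With the replicate block 17 members were called in effector adults (Pdha1 added, adjusted p = 0.0326), 9 in neonates (Hk2 lost, adjusted p = 0.0517) and 8 in neonates against effector adults. Counts over all genes also moved: for neonates against naive adults from 1652 to 705 with array weights, 676 with only the arrays compared, 935 against adult females and 1031 without neonate 1; for neonates against effector adults from 3346 to 2068 with array weights, 1942 against adult females and 2061 without neonate 2; in females from 2276 to 3745 with array weights, 1358 without effector female 2 and 1435 without effector female 3; and in males from 4048 to 2607 without effector male 3. Between naive females and males the 34 became 8 with only the arrays compared and 381 without the 3 least correlated arrays, where the difference of responses went from 0 to 72. With the filter at percentile 60, Hk3, Pfkm and Pfkfb4 were not tested. The causes of these changes were not tested, except that adults of 1 sex and only the arrays compared leave fewer arrays in the comparison or fit. Signal over background limits Hk3, Pfkm and Pfkfb4, near background in every group.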

Other observations

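In Hk1 the deposited value 6.17 was the same to 4 decimals on 6 arrays of 3 kinds (naive females 1 and 2, effector males 2 and 3, neonates 1 and 2). Pfkfb3 had 5.41 on 3 arrays and Pfkfb4 4.23 on 3. Eno3 and Taldo1 each shared a value between 2 arrays. Over all features measured, 11540 of 41345 (27.9%) had a value shared by 2 or more arrays. How these shared values arose was not tested.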
